A study of Rattus norvegicus with 24 samples.

Results

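The 150 transcripts described here are those whose hypothalamic signal dipped in late juvenile rats, measured on Illumina bead arrays with 1 array per rat. They were chosen from 22523 probes by their values. A probe had to be detected on all 5 early juvenile and all 5 late proestrus arrays at a detection p-value under 0.05, which 9295 probes were. Its late juvenile mean then had to lie farther from the mean of the other 4 stage means than any other stage did, and below it, which left 2060 probes. The 150 with the deepest dip, meaning the late juvenile mean minus the mean of the other 4 stage means on the log2 scale of the authors' processed signal, are the members. They report 148 target identifiers. The depth of the dip chose them, so it is given as a description with no test.

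The rats were Sprague Dawley, with no treatment, allele or agent named in the labels. There were 5 early juvenile animals aged 21 days, 5 juveniles aged 26 days and 5 late juveniles aged 29 days. Early proestrus, taken before ovulation, held 4 animals labelled 29, 30, 31 and 32 days, and late proestrus, the day on which an animal first ovulated, held 5 aged 31 days. The dissected hypothalamus was used as 1 piece of tissue per animal. The deposited files do not pair the probes with genes, and 0 of the probe identifiers and 0 of the target identifiers were found in the table of rat gene names used here, so transcripts are given by probe identifier, and the tissue label was not checked against marker genes. No sequence is shown for the same reason.

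The hypothalamus releases gonadotropin-releasing hormone in pulses, and pulses that grow stronger toward puberty drive the pituitary and, through it, the ovary. Neurons that make kisspeptin act on the neurons that release the hormone and carry the feedback of ovarian estradiol to them. Proestrus is the day of the rat cycle on which rising estradiol triggers the surge of luteinizing hormone that leads to ovulation, and the late juvenile stage lies just before the first such day.

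Juvenile replicate 4 detected 19.5% of all probes and early proestrus replicate 2 detected 6.33%, against 45.5% to 51.7% on the other 22 arrays, and both were left out of the choice of members and of every value below unless it is said that they were put back. They detected 58 and 7 of the 150 members. On the 22 arrays used, mean raw signal was 705.1 ± 70.2 (SD, n = 5) in late juvenile rats and averaged from 835.3 to 906.7 in the other stages. Single arrays overlapped. Late juvenile arrays ran from 582.9 to 754.9, while the dimmest juvenile array was at 513.7 and the dimmest late proestrus array at 694.9. Late juvenile animals carry numbers from 28 to 37 in the labels, whereas those of the juvenile and both proestrus stages run from 1 to 20 and those of the early juvenile stage from 164 to 168. The late juvenile stage and whatever else set this group of animals or its handling apart cannot be told apart, and no slide or scan label was used here. In bulk RNA, fewer cells of a type and less RNA per cell cannot be told apart either.

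Not every member was low on all 5 late juvenile arrays. The dip, as a median over the members, was seen on each of these arrays and was of moderate size. Its median was -0.65 on the log2 scale, so that the other stages lay 1.57-fold above the late juvenile stage, and the middle 50% of members lay between -0.78 and -0.53. At least 2-fold dips were found for 16 members. The deepest, ILMN_1650254, was -3.12, and -4.88 after background correction, but 3 of the 5 late juvenile arrays did not detect it, so its size depends on values at background. Taken over the 150 members, the median deviation of an array from the level of the other stages was -0.47 on late juvenile replicate 1, -0.71 on replicate 2, -0.74 on replicate 3, -0.65 on replicate 4 and -0.74 on replicate 5. Elsewhere, on 17 arrays, it ran from -0.17 to 0.10, so the late juvenile arrays stood below all of them. Over the 9295 detected probes the same median lay between -0.01 and 0.01 on every one of the 22 arrays. The processed signal appears quantile normalized, which holds this median near 0, so it cannot show whether the late juvenile arrays shifted as a whole. The members were chosen by a low late juvenile mean, so nothing is read from the low place of the late juvenile arrays.

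**Figure D1:**
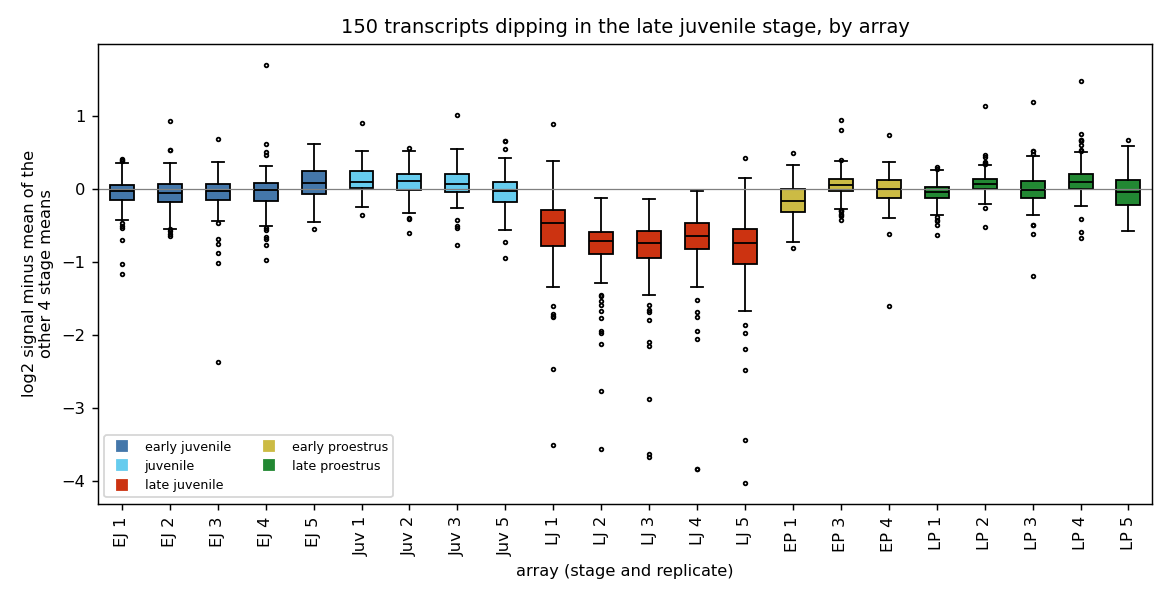
Deviation of the 150 members from the mean of the other 4 stage means (log2 processed signal, vertical axis) on each of 22 arrays (horizontal axis, stage and replicate: EJ early juvenile, Juv juvenile, LJ late juvenile, EP early proestrus, LP late proestrus). Boxes span the quartiles with the median as a line, whiskers reach 1.5 times the box height and points lie beyond. The late juvenile medians lie between -0.74 and -0.47 and those of the other arrays between -0.17 and 0.10.

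Background correction of the signal changed the size of the dip. After it the median dip was -0.93, a 1.91-fold difference, and 63 members were at least 2-fold lower. Late juvenile arrays were also dimmer on average, though single arrays overlapped with other stages. When raw signal was only scaled to each array's median, the detected probes had a median late juvenile deviation of -0.20 and the members one of -0.92. That the members lie below the detected probes follows from how they were chosen.

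For 68 of the 150 members every late juvenile array lay below all 17 arrays of the other stages, a share of 45.3% where the detected probes had 1.75%. The rule used this contrast, so nothing is read from these shares. In 50 members 4 of the 5 late juvenile arrays did so, in 18 members 3, in 12 members 2 and in 2 members 1. Of the single rats, replicate 2 was below the other stages for 136 members, replicate 3 for 134, replicate 5 for 130, replicate 4 for 120 and replicate 1 for 100. Replicate 1 was also the highest of the 5 late juvenile arrays for 77 members. It was the dimmest late juvenile array, with a mean raw signal of 582.9. Juvenile replicate 5, the dimmest of all 22 arrays at 513.7, had a median deviation of -0.03 over the members. Against the mean of juvenile replicates 1, 2 and 3, its median difference over the members was -0.13. The part of array brightness in the dip was not tested.

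The spread of the members between rats is given as a description, with no test. The SD among the 5 late juvenile arrays had a median of 0.26 over the members and 0.11 over the 9295 detected probes. Among early juvenile arrays, whose spread the rule did not use, the medians were 0.13 and 0.08, and among late proestrus arrays 0.16 and 0.09. For 127 members the SD was higher in the late juvenile than in the early juvenile stage, and for 111 it was higher than in late proestrus. Choice by a low late juvenile mean favours a larger SD there, and detection was required on every early juvenile and late proestrus array. The detected probes also had their higher median SD in the late juvenile stage, and the same counts are not given for them. Nothing is therefore read from these counts.

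**Figure D2:**
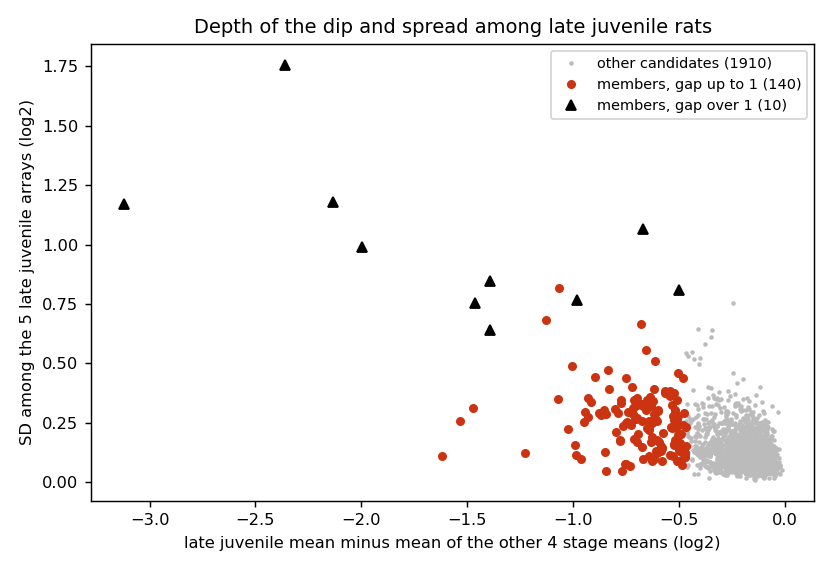
Each point is 1 of 2060 probes with the late juvenile stage as the farthest and lower stage. The horizontal axis gives the late juvenile mean minus the mean of the other 4 stage means and the vertical axis the SD among the 5 late juvenile arrays, both in log2 processed signal. Red circles are 140 members and black triangles are the 10 members with a gap of over 1 between neighbouring late juvenile values, while grey points are the probes not chosen. The black triangles include 7 of the 10 deepest dips.

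Most of the deepest dips were uneven among the late juvenile rats. In 10 members the 5 late juvenile values, put in order, had a gap of over 1 log2 unit between neighbours, against 2 members with such a gap among the early juvenile arrays and 1 among the late proestrus arrays. Of the 10 members with the deepest dips, 7 had such a gap, and over the 9295 detected probes it occurred in 0.355%. The members were ranked on the late juvenile mean, which very low single arrays pull down, so nothing is read from these shares. The size of the gap was chosen after the values were seen. The rule also required detection on every early juvenile and late proestrus array, but not on late juvenile arrays. The gap counts of these stages are therefore not on equal terms.

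ILMN_1650254, the member with the deepest dip, had a log2 processed signal of 7.86, 7.80, 7.68 and 7.53 on late juvenile replicates 1 to 4 and of 10.32 on replicate 5. The rats of every other stage ran from 11.22 to 11.56. Even the highest late juvenile rat therefore lay below every rat of the other stages, and 2 of the 5 late juvenile arrays detected the transcript. ILMN_1372101, with the next deepest dip of -2.36, split the same rats in another way. Its log2 processed signal was 13.63 on late juvenile replicate 1 and 13.28 on replicate 2, but 10.27, 10.07 and 10.46 on replicates 3, 4 and 5, against 13.47 to 14.17 in the other stages. All 5 arrays detected it, and replicate 1 lay within the range of the other stages.

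Another arrangement recurred in 3 probes, named after their values were seen. ILMN_1351707 had a log2 processed signal of 10.12 and 10.06 on late juvenile replicates 1 and 4, and of 8.25, 8.13 and 8.54 on replicates 2, 3 and 5. ILMN_1355600 was at 9.95 and 9.82 on replicates 1 and 4 and at 8.41, 8.26 and 8.38 on replicates 2, 3 and 5. ILMN_1360940 was at 9.24 and 8.88 on replicates 1 and 4 and at 7.73, 7.56 and 7.84 on the same other 3 rats. Replicates 2 and 3 did not detect ILMN_1360940, so the size of its split depends on values at background. ILMN_1355600 and ILMN_1360940 share a target identifier, so they are not independent, and both placed the same 3 rats lower. The other stages lay between 10.73 and 11.27 for ILMN_1351707, between 10.16 and 10.52 for ILMN_1355600 and between 9.55 and 9.96 for ILMN_1360940, above all 5 late juvenile arrays in each case. Replicates 1 and 4 were thus lower than the other stages too, by less than the remaining 3 rats.

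In other split members some late juvenile rats lay within or above the range of the other stages. These too were named after their values were seen. ILMN_1362029, the third deepest dip, had a log2 processed signal of 9.68, 10.86, 11.03, 10.39 and 8.13 on late juvenile replicates 1 to 5, and the other stages ran from 9.77 to 13.62. Replicates 2, 3 and 4 were inside that range. ILMN_1354352 was at 10.32, 9.66, 8.28, 7.99 and 10.08 on the late juvenile arrays, against 9.63 to 10.26 elsewhere, so replicate 1 was the highest of all 22 arrays. ILMN_1650838 was at 10.74, 9.34, 8.81, 8.74 and 9.19, against 9.06 to 10.33 elsewhere, and replicate 1 was again the highest of the 22. Its dip and that of ILMN_1354352 therefore rest on some of the rats.

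**Figure D3:**
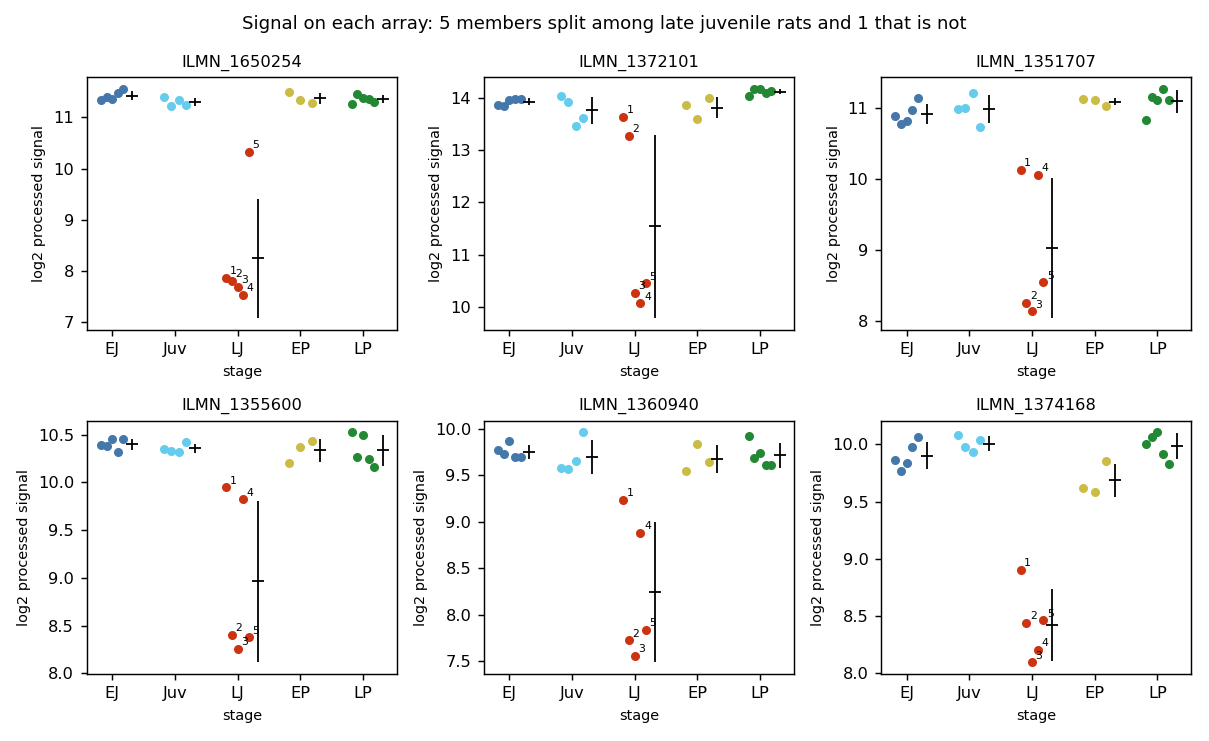
Log2 processed signal (vertical axis) of 6 members on each array, by stage (EJ early juvenile, Juv juvenile, LJ late juvenile, EP early proestrus, LP late proestrus). Points are arrays, numbers beside late juvenile points are replicates, and bars give mean ± SD. Late juvenile replicates 2, 3 and 5 lie apart from 1 and 4 for ILMN_1351707, ILMN_1355600 and ILMN_1360940, while the 5 values of ILMN_1374168 run from 8.09 to 8.90.

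In 116 of the 150 members no gap among the late juvenile arrays reached 0.5 log2 units. The other 34 had such a gap, where 3.54% of the detected probes had one. Ranking on the late juvenile mean favours such gaps, so nothing is read from this contrast. ILMN_1374168, named after its values were seen, had a log2 processed signal of 8.90, 8.44, 8.09, 8.20 and 8.46 on the 5 late juvenile arrays, 8.42 ± 0.31 (SD, n = 5). Its means were 9.90 ± 0.12 (SD, n = 5) in early juvenile, 10.01 ± 0.06 (SD, n = 4) in juvenile, 9.69 ± 0.14 (SD, n = 3) in early proestrus and 9.98 ± 0.11 (SD, n = 5) in late proestrus rats. No late juvenile array overlapped with another stage. ILMN_1373792, also named after its values were seen, dipped by 0.96 with little spread. It was at 12.84, 12.68, 12.69, 12.85 and 12.64 on the late juvenile arrays and between 13.55 and 13.83 on the 17 others. ILMN_1353130 differed from both. Its late juvenile values ran from 7.73 to 7.98, with 2 of 5 arrays detecting it, so their closeness depends on values at background. After background correction they ran from 5.58 to 6.44. Its processed early juvenile values ran from 8.43 to 11.15 and its late proestrus values from 8.25 to 9.35, with SDs of 1.20 and 0.45 (n = 5 each).

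Where the array holds more than 1 probe for a target, the other probe did not always dip. Of the 148 targets, 2 had both of their probes among the members. ILMN_1371762 and ILMN_1360408 are one such pair, with dips of -0.70 and -0.58. ILMN_1368755 had a log2 processed signal of 7.60, 7.41, 7.75, 7.70 and 8.18 on the late juvenile arrays, of which 1 detected it, and means between 8.54 and 8.65 in the other stages. The other 2 probes of its target, named with it, were detected on all 22 arrays. ILMN_1370718 had a late juvenile deviation of -0.09, with 9.88 ± 0.19 (SD, n = 5) in that stage against means of 9.92 to 10.01 elsewhere. ILMN_1375122 deviated the other way, by 0.40, and its late juvenile arrays, at 10.72 to 10.87, lay above all 17 others, at 10.07 to 10.55. For ILMN_1374494 the late juvenile mean was 9.42 ± 0.24 (SD, n = 5) against stage means of 10.01 to 10.29 elsewhere. Of its target's further probes, ILMN_1650901 deviated by -0.24 in the late juvenile stage and ILMN_1367132 by 0.28. For both targets the probes therefore differed in the sign of the deviation.

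At the edge of the list, ILMN_1370719 and ILMN_1367491 were the last members, with dips of -0.468 and -0.468, and ILMN_1364377 and ILMN_1530390 were the first probes left out, with -0.466 and -0.465. ILMN_1370719 had a mean log2 processed signal of 11.36 in late juvenile and 11.80 in early juvenile rats, and ILMN_1364377 had 13.39 and 13.69. The limit therefore falls in a continuous run of dips.

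The stages other than the late juvenile one were compared in a limma fit of the 17 arrays without late juvenile rats, on background-corrected log2 signal, with p-values adjusted by the Benjamini-Hochberg method over all 12436 probes fitted and a threshold of 0.05. The rule bounds the size of these differences, since the late juvenile stage had to be the farthest, but sets no direction. The comparisons below share arrays with each other. From juvenile to early proestrus, the stages on either side, limma called 0 of 150 members and 0% of all probes in either direction. At an unadjusted p under 0.05 there were 21 members (14%), 20 lower and 1 higher in early proestrus, against 4.15% of all probes. The median log2 difference of the members was -0.12, with 106 of 150 below 0, and that of all probes was 0.01. A p that misses the threshold does not show that the 2 levels were equal. Without early proestrus replicate 1 the median of the members was -0.03, 12 members had an unadjusted p under 0.05, and limma again called 0. With median scaling the median was -0.08, with 89 of 150 below 0, and that of all probes 0.05. The count of 21 was 9 without juvenile replicate 1, 36 without juvenile replicate 5, 39 without early proestrus replicate 3 and 1 with median scaling.

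That rat, early proestrus replicate 1, had the labelled age of the late juvenile rats, 29 days, while the other 2 early proestrus rats used were labelled 31 and 32 days. Its median deviation over the members was -0.17, against 0.05 on replicate 3 and -0.004 on replicate 4. It was lower than both of them for 87 of 150 members (58%), where it was lower than both for 38% of the detected probes. Its log2 processed signal differed from the mean of the other 2 by a median of -0.17 over the members and 0.004 over the detected probes. It was the lowest of the 17 arrays outside the late juvenile stage for 37 members (24.7%), and for 12.9% of the detected probes. The 150 probes that peaked in the late juvenile stage, chosen by the same rule with the sign turned, had a median difference of 0.24 between this rat and the other 2, and it was lower than both for 10.7% of them. Juvenile replicate 5, aged 26 days, had the same signs. It differed from the mean of juvenile replicates 1, 2 and 3 by a median of -0.13 over the members. Its median deviation over the peaking probes was 0.15, against -0.07, -0.06 and -0.10 on juvenile replicates 1, 2 and 3. The mean raw signal of early proestrus replicate 1 was 786.8 against 873.8 and 935.6. Nothing is read from its animal number, 8, which lies outside the range of the late juvenile group. Early proestrus replicate 1 is 1 rat, so no test was made, and the part of age, brightness or handling in its position was not tested.

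**Figure D4:**
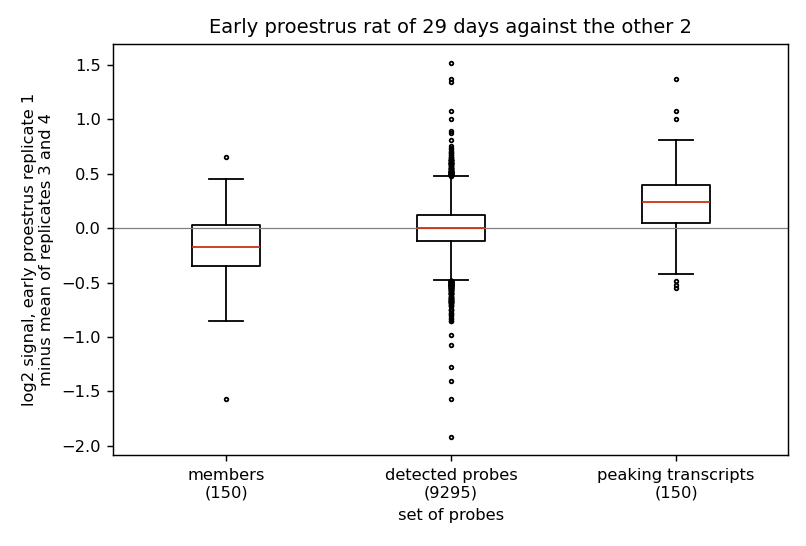
Log2 processed signal of early proestrus replicate 1 (29 days) minus the mean of replicates 3 and 4 (31 and 32 days) for 3 sets of probes (horizontal axis): the 150 members, the 9295 detected probes and the 150 transcripts peaking in the late juvenile stage. Boxes span the quartiles with the median in red, whiskers reach 1.5 times the box height and points lie beyond. The medians are -0.17, 0.004 and 0.24.

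Late proestrus replicate 5, with a mean raw signal of 694.9, was the lowest of the 17 for 26 members (17.3%) and 6.78% of the detected probes, with a median deviation of -0.04. Juvenile replicate 5, the dimmest at 513.7, was the lowest for 19 members (12.7%) and for 18.1% of the detected probes. Early proestrus had the lowest mean of the other 4 stages for 65 members (43.3%, against 24.2% of the detected probes). That mean is of 3 arrays and includes replicate 1, the lowest of the 17 for 37 members. The stage shares are not given without this rat. Early juvenile was the lowest for 54 (36% against 33.4%), close to its general share, late proestrus for 23 (15.3% against 24.0%) and juvenile for 8 (5.33% against 18.4%). Juvenile had the highest mean of the 4 for 55 members (36.7% against 17.7%) and late proestrus for 44 (29.3% against 22.9%). Early juvenile was the highest for 38 (25.3% against 33.5%) and early proestrus for 13 (8.67% against 25.9%), both below their general shares. These shares are a description, with no test.

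Across the 4 other stages, most members did not pass a test of any difference. The moderated F test in limma passed for 11 of 150 members (7.33%), against 3.95% of all probes fitted and 4.72% of the detected ones. Leaving out single arrays moved this count to 5 without early juvenile replicate 1, 6 without replicate 2, 4 or 5 of that stage, and 21 without juvenile replicate 5. With all 22 arrays in the fit it was 6, with median scaling 2, and with the 2 low-detection arrays put back 0.

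Between the first and the last stage more members passed, most of them higher in late proestrus. In the same limma fit 18 members (12%) rose and 4 (2.67%) fell, against 3.89% higher and 3.29% lower of all probes, and 4.63% and 3.96% of the detected ones. The median log2 difference of the members was 0.002 and that of all probes -0.006, with 75 members above 0 and 75 below. The count of 22 became 13 without early juvenile replicate 1, 10 without early juvenile replicate 4, 12 without late proestrus replicate 2, 4 or 5, 9 with median scaling and 12 with all 22 arrays fitted.

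Among the members past the threshold, ILMN_1364113 had the largest rise. A larger log2 difference of 1.62 was fitted for ILMN_1362029, named after its values were seen, but it missed the threshold (SE 0.55, limma adjusted p = 0.0847). The background-corrected log2 signal of ILMN_1364113 was 10.86, 10.74, 10.94, 10.89 and 11.42 on the early juvenile arrays. On the late proestrus arrays it was 11.62, 11.91, 11.84, 11.88 and 11.54, and the 2 groups did not overlap. The log2 difference of ILMN_1364113 was 0.79 (SE 0.12, limma adjusted p = 0.00141), and its juvenile and early proestrus means, 11.47 and 11.57, lay between. In late juvenile rats it was at 10.58, 10.20, 10.72, 10.97 and 11.26, overlapping with the early juvenile range. ILMN_1351350 rose by 0.77 (SE 0.16, limma adjusted p = 0.00877), from 10.05 ± 0.30 (SD, n = 5) to 10.82 ± 0.32 (SD, n = 5), with 10.30 and 10.62 in the juvenile and early proestrus stages. Its late juvenile arrays ran from 8.41 to 9.93, and replicate 2 was the lowest. Both calls held without each of the 17 arrays in turn, with an adjusted p of at most 0.0062 and 0.0283.

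ILMN_1352135 had the largest fall of the members past the threshold. Its background-corrected log2 signal was 9.29, 9.47, 8.84, 9.43 and 9.36 in early juvenile rats and 8.15, 8.45, 7.96, 7.64 and 9.05 in late proestrus rats, where replicate 5 overlapped with the early juvenile range. The log2 difference was -1.03 (SE 0.25, limma adjusted p = 0.0198), and the adjusted p rose to 0.051 without early juvenile replicate 4. Late juvenile arrays, at 7.39 to 7.69, overlapped with late proestrus replicate 4 alone. ILMN_1357178 fell by 0.50 (SE 0.09, limma adjusted p = 0.00282), from 9.82 ± 0.12 (SD, n = 5) to 9.32 ± 0.10 (SD, n = 5), with no overlap, and kept the call without each array in turn. Its juvenile mean was already 9.45, and its late juvenile arrays lay at 8.07, 8.63, 8.62, 9.15 and 8.53, below every other array.

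**Figure D5:**
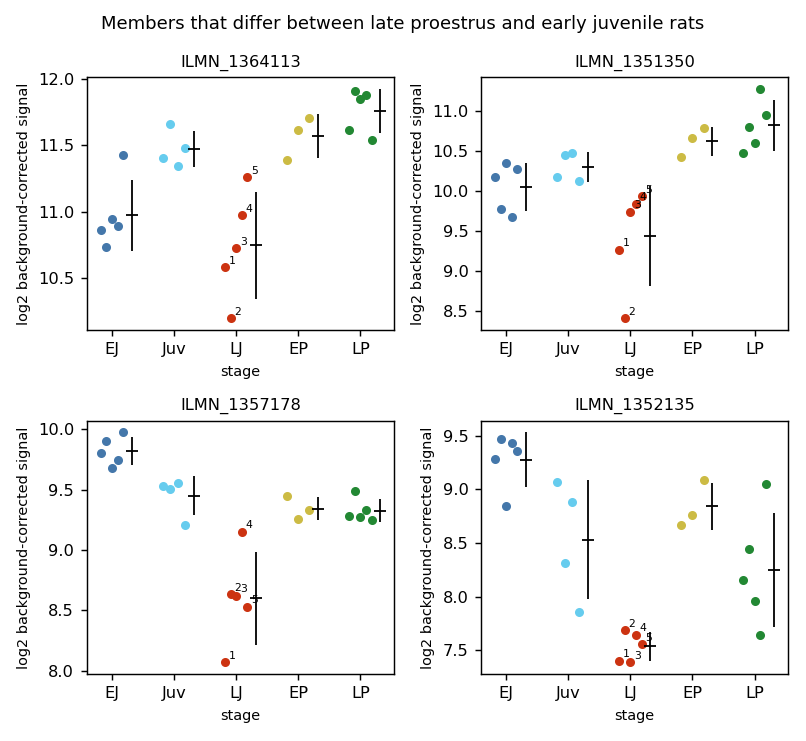
Background-corrected log2 signal (vertical axis) of 4 members on each array, by stage (EJ early juvenile, Juv juvenile, LJ late juvenile, EP early proestrus, LP late proestrus). Points are arrays, numbers beside late juvenile points are replicates, and bars give mean ± SD. ILMN_1364113 and ILMN_1351350 rise from early juvenile to late proestrus by 0.79 and 0.77 and ILMN_1357178 and ILMN_1352135 fall by 0.50 and 1.03, and late juvenile means are the lowest of the 5 stages in each panel.

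From 21 to 26 days, 6 members (4%) rose and 1 (0.667%) fell in limma, against 1.23% and 1.29% of all probes. All 7 were also called between early juvenile and late proestrus, which uses the same early juvenile arrays. ILMN_1351309 rose from 9.35 ± 0.27 (SD, n = 5) to 10.09 ± 0.19 (SD, n = 4), a log2 difference of 0.74 (SE 0.15, limma adjusted p = 0.0215). Its juvenile arrays were at 9.98, 10.38, 9.98 and 10.01, all above the early juvenile range of 8.95 to 9.61, and its adjusted p became 0.055 when early juvenile replicate 4 was left out and 0.059 when juvenile replicate 2 was. ILMN_1350180 rose by 0.63 (SE 0.15, limma adjusted p = 0.0374) and ILMN_1357178 fell by 0.37 (SE 0.09, limma adjusted p = 0.0386), and the call was lost on leaving out 1 array in 8 of 17 cases for the first and 10 of 17 for the second. The count of 7 was 1 without early juvenile replicate 1, 3 without replicate 2, 4 without replicate 3, 0 without replicate 4, 3 without replicate 5, 1 without juvenile replicate 1 and 0 without juvenile replicate 2. It was 1 with all 22 arrays fitted, 2 without a filter and 0 with median scaling.

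Between early and late proestrus limma called 0 of 150 members, against 0.00804% of all probes and 0.0108% of the detected ones higher, and 0% lower. At an unadjusted p under 0.05 there were 11 members (7.33%) and 4.91% of all probes. The median log2 difference of the members was 0.08, with 108 of 150 above 0, and that of all probes was -0.005. The median of the members was 0.002 without early proestrus replicate 1, 0.15 without early proestrus replicate 3, 0.04 without late proestrus replicate 4, with 92 above 0, and 0.16 with median scaling, with 132 above 0. The count of 11 was 2 without early proestrus replicate 1, 18 without early proestrus replicate 3, 7 without early juvenile replicate 1 or 4 or late proestrus replicate 2, 6 without late proestrus replicate 3 and 5 without late proestrus replicate 4.

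The list itself depends on how the signal was processed. Of the 150 members, 95 were chosen again by the same rule on background-corrected signal and 122 on raw signal scaled to the array medians. Stage medians in place of means chose 125 again, and detection on all 22 arrays chose 131. With the 2 low-detection arrays put back it was 87. Leaving out a single array kept between 130 and 149, with the fewest, 130 and 131, without late juvenile replicates 2 and 1.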

How the data were processed

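Hypothalamic RNA of 24 rats was labelled with biotin and hybridised to Illumina arrays, per the labels' protocols. The deposited intensity is not normalized, per the file headers, and comes with a detection p-value for each probe and array, per the file headers. The values named processed signal here are a second deposited intensity table of the authors. It kept the rank order of the raw values on every array and had near-equal medians, on a linear scale, so it appears quantile normalized, and its log2 was taken for the rule. How it was made is not given in the sources used here.

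For tests, intensities of 22 arrays were background-corrected, quantile normalized and put on the log2 scale with neqc (offset of 16) in limma 3.58.1 under R 4.3.3. Probes detected at p under 0.05 on at least 4 arrays were kept, which left 12436, and every probe was kept separately. The 17 arrays outside the late juvenile stage were fitted with lmFit and eBayes, each stage having its own mean, after the code was tested on simulated data. Samples are separate animals in the labels, so p-values measure the spread between these animals. Precision is limited by the number of arrays.

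Members, lists and alternatives were chosen with earlier results of these data known. Gene lists, cell markers and promoter motifs planned for members with a gene symbol could not be applied and are not analysed here. The naming rule, with identifiers in place of symbols, was limited to 2 up and 2 down per comparison: the 2 deepest dips, the largest differences past the threshold, the 2 widest ranges among members past the F test, 2 probes on either side of the limit, and the 2 deepest members whose target has another probe, not a member, detected on all 22 arrays. Alternatives covered background correction, normalization, filters, the arrays fitted, array weights and leaving out each array. Other probes are said to be named after their values were seen.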

Additional observations from a re-analysis of the deposited data

Results flagged for a closer look

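Extreme values within a stage were looked for in the named probes and in the array-level measures. A value stood apart in 8 of the 88 sets of 4 or 5 arrays examined, and chance alone flags about 5% of sets.

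Among members, the log2 processed signal of ILMN_1650254 was 10.32 on late juvenile replicate 5, against 7.72 ± 0.14 (SD) on the other 4 arrays of the stage. ILMN_1351309 was at 10.45 on juvenile replicate 2, against 10.11 ± 0.01 on the other 3, and its juvenile against early juvenile call was lost without this array or without early juvenile replicate 4. ILMN_1357178 was at 9.48 and ILMN_1367491 at 9.92 on juvenile replicate 5, an array with a mean raw signal of 513.7, against 9.73 ± 0.02 and 10.21 ± 0.02 on the other 3. ILMN_1364377, the first probe left out of the list, was at 13.67 on late juvenile replicate 1, against 13.33 ± 0.05.

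The median deviation of the 150 members was 0.0837 on early juvenile replicate 5, against -0.0357 ± 0.0142 (SD) on the other 4 early juvenile arrays. Mean raw signal was 1000.2 on early juvenile replicate 2, against 844.6 ± 16.1, and 582.9 on late juvenile replicate 1, against 735.6 ± 18.8.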

How the results depend on the processing

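Each pair of counts gives members, then all probes. The F test gave 11 and 491, juvenile against early juvenile 7 and 313, and late proestrus against early juvenile 22 and 893, and further pairs keep this order. Without background correction the first gave 20 and 858 and the next 11 and 471. The authors' processed values gave 20 and 862 for the first and 473 probes for the next. Median scaling gave 2 and 219, 0 and 93, and 9 and 326. The strict filter, detection at 0.01 on each array, left 7907 probes and gave 19 and 744 for the first, with fewer probes tested. No filter gave 2 and 179 for juvenile against early juvenile. All 22 arrays in the fit gave 6, 1 and 12 members. Array weights gave 35 and 1730, 17 and 851, and 37 and 2176. Putting the 2 low-detection arrays back gave 0 and 1, 0 and 0, and 0 and 1. Leaving out 1 array gave 5 to 21 members and 213 to 1009 probes, 0 to 10 and 97 to 402, and 10 to 27 and 452 to 1339.

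Early proestrus against juvenile stayed at 0 members throughout, with 1 probe called in place of 0 without background correction, with the authors' processed values and with the strict filter, and 0 to 0 when 1 array was left out. Late against early proestrus stayed at 0 members, with 1 probe, 1 to 1 without single arrays, and 0 probes with the low-detection arrays put back. The median dip, -0.65, was -0.93 after background correction and -0.92 with median scaling of raw signal, and -0.71 to -0.62 without single late juvenile arrays. The choice of members kept 95 after background correction, 87 with the low-detection arrays put back, and 130 to 149 without single arrays. The median difference of early proestrus replicate 1, -0.17, was -0.21 after background correction. Of 182 recomputed differences of named probes, 145 kept direction and call, 36 lost the call and 1 reversed, ILMN_1351309 in juvenile against early juvenile, at -0.20 with the low-detection arrays put back. Where no construction shows it, the cause was not tested. No paired analysis was possible because the animal numbers in the labels are unique. Signal over background limits the 19 members that 1 or more late juvenile arrays did not detect.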
